A study of Homo sapiens with 6 samples.

Results

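Carnitine acetyltransferase, *CRAT*, and 8 other enzymes that load fatty acids onto carnitine or oxidize them were followed in MDA-MB-453 cells after *DUSP6* knockdown. The 9 genes, *CRAT*, *CROT*, *CPT1A*, *CPT2*, *ACADM*, *ACADVL*, *HADHA*, *HADHB* and *ECHS1*, were matched by symbol among the 22807 genes of the table, and all 9 were found. *CRAT* was picked for its fall in this same contrast, so its values are given as a description with no test. The other 8 were chosen by name as enzymes around it, with results of these data already known.

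MDA-MB-453 is an established HER2+ breast cancer cell line. The cells had no engineered genotype and were grown in RPMI with fetal bovine serum. They were transfected with lipofectamine RNAiMAX, in 3 libraries with *DUSP6* siRNA, which lowers the mRNA of the ERK phosphatase DUSP6, and in 3 libraries with scrambled siRNA. The study describes 3 different siRNAs against 3 different scrambled controls, and neither which of them went into which library nor the time after transfection is given in the sources used here. Differences between libraries of a group may therefore come from the siRNA or from the culture, and p-values measure only the spread between these libraries.

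Fatty acids reach the mitochondrial matrix as carnitine esters. CPT1 enzymes on the outer membrane make the long-chain acylcarnitines and CPT2 on the inner membrane turns them back into acyl-CoA, while CROT makes medium-chain acylcarnitines in peroxisomes and CRAT exchanges acetyl groups between CoA and carnitine. In the matrix, acyl-CoA dehydrogenases, an enoyl-CoA hydratase, a hydroxyacyl-CoA dehydrogenase and a thiolase shorten the chain, and the mitochondrial trifunctional protein, built of HADHA and HADHB subunits, carries the last 3 of these activities for long chains.

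The deposited values are linear normalized values, each a whole number of reads scaled to the library, and the libraries held 45546981 to 85729785 reads. Each of the 9 enzymes had 579 to 39074 reads in every library, so the spread between libraries and not the depth set the precision. All 9 passed the filter of a mean normalized value of at least 1. limma on log2(value + 1) compared the groups over 12862 genes, with calls at a Benjamini-Hochberg adjusted p under 0.05. Fold changes are on that log2 scale, as *DUSP6* siRNA minus scrambled siRNA.

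Values of single libraries are given in the order of replicates 1 to 3. *DUSP6*, the targeted gene, had normalized values of 209, 110 and 114 with scrambled siRNA and 39.4, 24.5 and 35.2 with *DUSP6* siRNA. Its log2 fold change was -2.05 (limma adjusted p = 3.09e-04), although another annotated gene overlaps 28.6% of its exons. Reads were counted with the package's default settings, which ignore strand, so the 2 genes cannot be told apart there. Of 12 luminal and apocrine breast cancer markers, all 12 passed the filter and 9 were called lower (against 24.7% of all genes tested). Their summed value ranged from 4975 to 6588 with scrambled siRNA and from 3606 to 3852 with *DUSP6* siRNA. Of 6 fibroblast markers only *COL1A1* passed the filter, rising from 92.2 to 173 (limma adjusted p = 4.21e-04). Of 6 immune markers only *CD68* passed, and the list's summed value was 3.79 to 5.75 in all 6 libraries. The 4 endothelial markers summed to at most 0.422. The interferon-induced gene *IFIT1* rose from a mean value of 6.99 to 1042 (log2 fold change 7.19, limma adjusted p = 1.51e-06). The part of the lower luminal markers and of the interferon-induced change in the results below was not tested.

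The neighboring genes *HADHA* and *HADHB* are shown first by the sequence between them, because they encode the 2 subunits of one enzyme, are read away from each other from a shared stretch, and only *HADHA* was called lower. In RefSeq on GRCh38.p14, *HADHA* (Entrez gene 3030) covers 26190635 to 26244632 on the minus strand of chromosome 2 and *HADHB* (Entrez gene 3032) covers 26244939 to 26290465 on the plus strand, so 306 bases lie between their first bases. The 250 of these bases next to *HADHB*, chr2:26244689-26244938 on the plus strand, have a GC content of 69.2% and 17 CpG dinucleotides. The capitals mark 2 GC boxes, found as CCGCCC, the reverse complement of GGGCGG, which start 64 and 28 bases before the first base of *HADHB*.
HADHA-HADHB stretch: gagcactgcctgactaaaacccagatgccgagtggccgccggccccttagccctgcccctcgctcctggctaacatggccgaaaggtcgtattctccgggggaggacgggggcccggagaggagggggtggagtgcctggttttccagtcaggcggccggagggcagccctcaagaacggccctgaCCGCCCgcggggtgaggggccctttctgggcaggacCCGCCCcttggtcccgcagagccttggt
In RefSeq promoter windows of GRCh38.p14, which run from 250 bases before to 50 bases after each start, 8 of the 9 genes, all but *CRAT*, were found with 9 windows, and the counts below are over these 8. A GC box (GGGCGG on either strand) was in the windows of 7 of these 8 genes, all but *CPT1A*, and in 45.0% of 35116 windows of all genes. The windows of *HADHA* and *HADHB* overlap, and the GC box 64 bases before *HADHB* lies in both. *ACADVL* had 2 windows, so counts of genes are set here beside shares of windows. The CCAAT box (CCAAT on either strand) was in 1 of them, *CROT*, and in 34.6% of all windows. The ETS core (CCGGAAGT on either strand) was in 1, *CPT2*, and in 4.14% of all windows. The nuclear receptor half-site (AGGTCA on either strand) was in 0 and in 13.8% of all windows. Its longer form AAGGTCA, which contains it, was in 0 as well and in 3.92% of all windows. These are matches of letters in the windows and show no binding.

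*CRAT* was the carnitine acyltransferase with the highest level in cells with scrambled siRNA, and its level was 4.52 times lower with *DUSP6* siRNA. *CRAT* (Entrez gene 1384, chromosome 9 of GRCh38, 129094794 to 129110793, minus strand) had normalized values of 506, 548 and 471 with scrambled siRNA and 127, 97.4 and 114 with *DUSP6* siRNA. The groups did not overlap, and the lowest scrambled siRNA library was 3.72 times the highest *DUSP6* siRNA library. The group means were 508 ± 38.5 and 113 ± 14.6 (SD, n = 3 each), and the log2 fold change was -2.17 with a standard error of 0.11. This placed *CRAT* as the 31st lowest fold change of 12862 genes, with 0.241% of genes at or below it, and it had ranked 188th by mean value with scrambled siRNA. These values are those that chose the gene.

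The other 8 enzymes split into 3 that fell and 5 that did not pass the test. *HADHA*, *ECHS1* and *CPT2* were called lower, and *CROT*, *CPT1A*, *ACADM*, *ACADVL* and *HADHB* were not called. Over all 12862 genes tested, 24.7% were called lower and 19.7% higher, and against this background 3 of 8 called lower and 0 of 8 called higher is not read as a result about these enzymes as a set. The *DUSP6* siRNA values were all below the scrambled siRNA values for the same 3 of 8 enzymes, against 31.1% of all genes tested, and all above for 0 of 8, against 26.7%. For these 3 enzymes the two-sided exact permutation test gave p = 0.1, the smallest that 3 libraries against 3 allow. Under the alternatives run the number called lower stayed between 2 and 4 of 8, and it was 2 without any single *DUSP6* siRNA library. Leaving out a *DUSP6* siRNA library also lowered the count called lower over all genes, from 3179 to between 2306 and 2454.

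**Figure D1:**
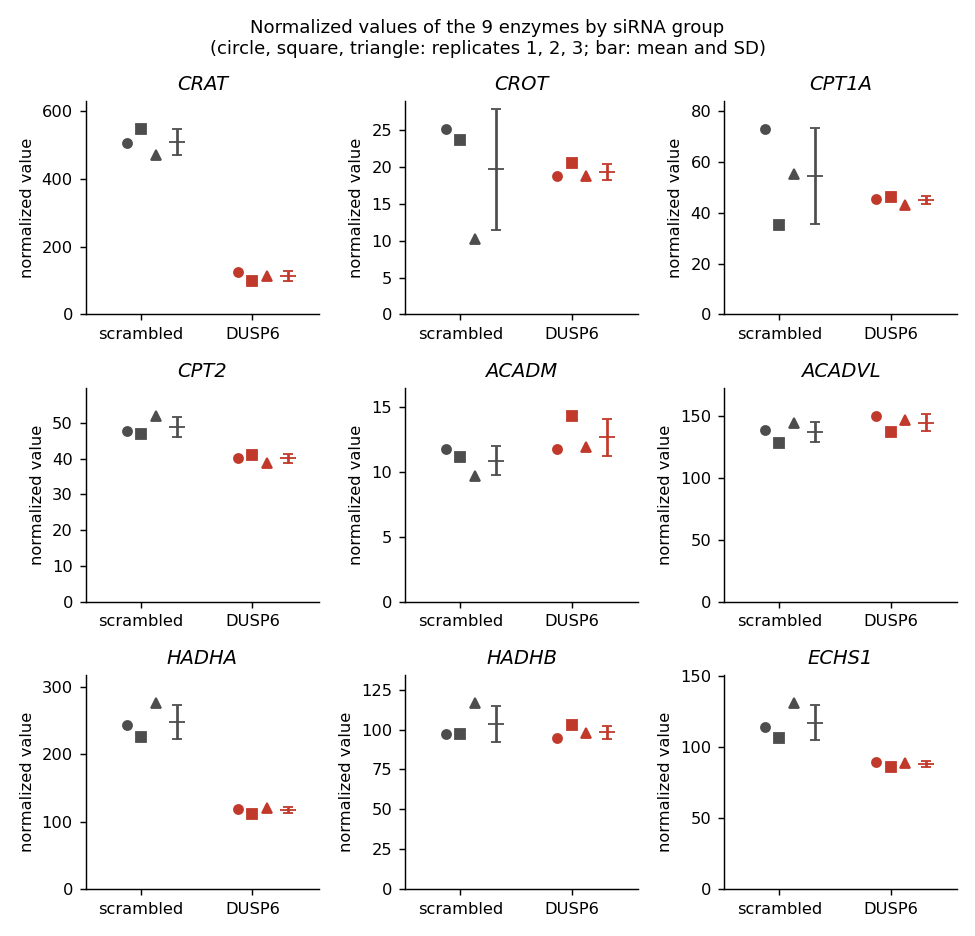
Normalized value (linear, vertical axis from 0) of each of the 9 enzymes with scrambled siRNA (grey) and *DUSP6* siRNA (red), where circle, square and triangle are replicates 1, 2 and 3 and bars give the mean and SD. *CRAT*, *HADHA*, *ECHS1* and *CPT2* show no overlap between the groups, and the 3 scrambled siRNA points of *CROT* and *CPT1A* lie far apart.

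Among the acyltransferases of the carnitine shuttle, *CPT2* fell slightly. *CPT2* (Entrez gene 1376, chromosome 1, 53196824 to 53214197, plus strand) had normalized values of 47.7, 47.0 and 52.0 with scrambled siRNA and 40.2, 41.1 and 38.8 with *DUSP6* siRNA. All 3 *DUSP6* siRNA libraries lay below the lowest scrambled siRNA library. The log2 fold change was -0.28 (standard error 0.09, 95% interval -0.48 to -0.08, limma adjusted p = 0.0305). This call was lost under quantile normalization (-0.21, limma adjusted p = 0.0789) and without *DUSP6* siRNA replicate 1, 2 or 3 (limma adjusted p = 0.0989, 0.0691 and 0.135). Another annotated gene also overlaps 34.0% of the canonical *CPT2* transcript, so the value of *CPT2* is uncertain.

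*CPT1A*, the isoform of the malonyl-CoA sensitive entry step that is best known from liver, gave no call. *CPT1A* (Entrez gene 1374, chromosome 11, 68754620 to 68844277, minus strand) had normalized values of 73.1, 35.3 and 55.0 with scrambled siRNA and 45.3, 46.2 and 43.1 with *DUSP6* siRNA. The *DUSP6* siRNA libraries all lay between the lowest and the highest scrambled siRNA library, and the highest value of a group was 2.07 times the lowest with scrambled siRNA and 1.07 times with *DUSP6* siRNA. The log2 fold change was -0.21 (95% interval -0.70 to 0.27, limma adjusted p = 0.442). One library decided its direction, since the fold change was 0.02 (limma adjusted p = 0.924) without scrambled siRNA replicate 1 and -0.49 (limma adjusted p = 0.0189) without scrambled siRNA replicate 2. The paralog *CPT1B* was at 5.74 and 6.93 in the 2 groups and was not called (limma adjusted p = 0.112), and *CPT1C* was under the filter.

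*CROT*, the peroxisomal octanoyltransferase (Entrez gene 54677, chromosome 7, 87345664 to 87399794, plus strand), had normalized values of 25.2, 23.6 and 10.3 with scrambled siRNA and 18.7, 20.6 and 18.7 with *DUSP6* siRNA. Scrambled siRNA replicate 3 stood below the other 5 libraries and the groups overlapped. The log2 fold change was 0.07 (95% interval -0.56 to 0.70, limma adjusted p = 0.854). Without scrambled siRNA replicate 3 it was -0.32 (limma adjusted p = 0.0239), so here too the direction rested on 1 library. The highest scrambled siRNA value of *CROT* was 2.45 times the lowest, against 1.10 times among the *DUSP6* siRNA libraries.

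Set side by side per kb of canonical transcript, *CRAT* made up 82.2%, 86.3% and 83.8% of the summed level of the 4 acyltransferases with scrambled siRNA and 60.9%, 53.6% and 59.1% with *DUSP6* siRNA. The sum of the 4 per kb was 218 ± 13.6 and 70.1 ± 4.74 (SD, n = 3 each) in the 2 groups. The sum of the 3 besides *CRAT* was 34.6 ± 4.24 and 29.4 ± 1.01 (SD, n = 3). The drop in the total is therefore for the most part the drop of *CRAT*, by which the set was chosen. The ratio of *CPT1A* to *CPT2* per kb was 0.574 ± 0.203 and 0.577 ± 0.00462 (SD, n = 3; two-sided exact permutation test, p = 0.7), which shows the scatter of *CPT1A* among the scrambled siRNA libraries.

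**Figure D2:**
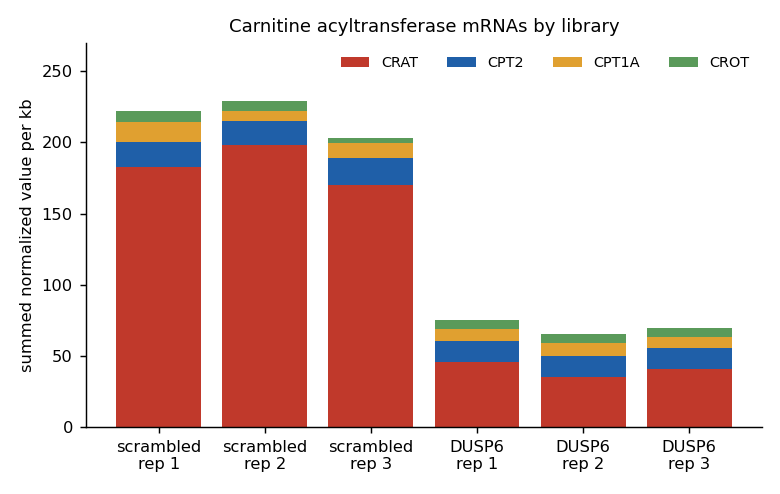
Summed normalized value per kb of canonical transcript (vertical axis from 0) of the 4 carnitine acyltransferase mRNAs in each of the 6 libraries, stacked by gene. The *CRAT* segment makes up 82.2% to 86.3% of the bar in the scrambled siRNA libraries and 53.6% to 60.9% in the *DUSP6* siRNA libraries.

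In the beta-oxidation spiral itself, the dehydrogenases of the first step gave no call. *ACADVL*, which takes very long chains (Entrez gene 37, chromosome 17, 7217125 to 7225266, plus strand), had normalized values of 138, 128 and 145 with scrambled siRNA and 150, 137 and 147 with *DUSP6* siRNA. Its log2 fold change was 0.08 (95% interval -0.12 to 0.27, limma adjusted p = 0.500). *ACADM*, which takes medium chains (Entrez gene 34, chromosome 1, 75724709 to 75763679, plus strand), had 11.8, 11.1 and 9.65 with scrambled siRNA and 11.7, 14.3 and 11.9 with *DUSP6* siRNA. The groups of both genes overlapped, and for *ACADM* the log2 fold change was 0.20 (95% interval -0.08 to 0.48, limma adjusted p = 0.213). The intervals leave room for changes of up to 0.27 and 0.48 on the log2 scale.

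The subunits of the trifunctional protein gave different calls. *HADHA*, the alpha subunit with the hydratase and dehydrogenase activities, had normalized values of 243, 227 and 276 with scrambled siRNA and 119, 112 and 121 with *DUSP6* siRNA. The lowest scrambled siRNA library was 1.88 times the highest *DUSP6* siRNA library. The mean fell from 249 ± 25.3 to 117 ± 4.73 (SD, 3 libraries each). The log2 fold change was -1.08 (standard error 0.10, 95% interval -1.30 to -0.86, limma adjusted p = 6.23e-05), and 3.50% of genes tested had a fold change at or below it. *HADHB*, the beta subunit with the thiolase activity, had 97.2, 97.0 and 117 with scrambled siRNA and 94.8, 103 and 97.7 with *DUSP6* siRNA. Its groups overlapped, at means of 104 ± 11.3 and 98.4 ± 4.04 (SD, n = 3) and a log2 fold change of -0.07 (95% interval -0.29 to 0.16, limma adjusted p = 0.596). The sign of the *HADHB* value changed under quantile normalization (0.04) and without scrambled siRNA replicate 3 (0.02), while *HADHA* was called lower under all 14 alternatives. The intervals of the 2 subunits do not overlap.

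Per kb of canonical transcript, the ratio of *HADHA* to *HADHB* was 1.70, 1.58 and 1.61 with scrambled siRNA and 0.851, 0.738 and 0.838 with *DUSP6* siRNA. On these lengths the ratio was above 1 in every scrambled siRNA library and below 1 in every *DUSP6* siRNA library. The means were 1.63 ± 0.0610 and 0.809 ± 0.0622 (SD, n = 3). The two-sided exact permutation test gave p = 0.1 (0.133 adjusted over 4 ratios), the smallest raw p possible here. The ratio cancels the scaling of each library. Where it stands against 1 depends on the transcript lengths used, and its change between the groups does not. Per kb of all annotated exons (4331 bases for *HADHA* and 4277 for *HADHB*) it stayed above 1 in every library of both groups. Processed pseudogenes of *HADHA*, *HADHB* and *CPT2* exist in the genome and are no rows of the table, and whether they took reads from these genes was not tested.

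**Figure D3:**
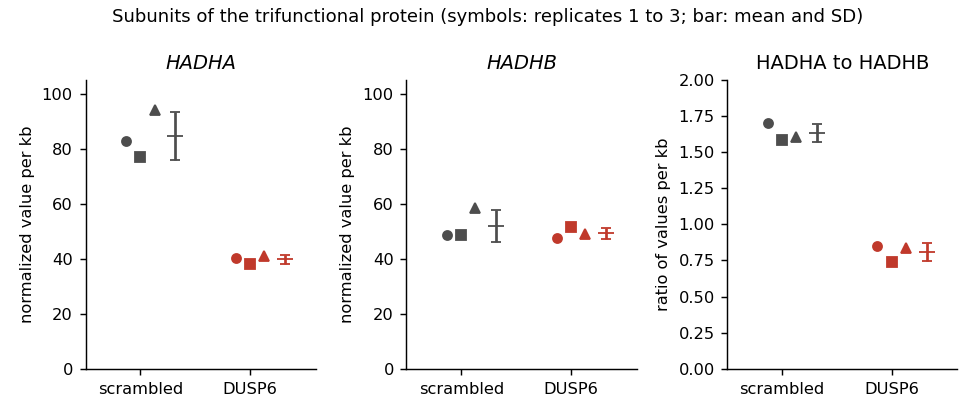
Normalized value per kb of canonical transcript of *HADHA* and *HADHB*, and their ratio, by siRNA group (grey scrambled, red *DUSP6*; circle, square and triangle are replicates 1, 2 and 3; bars, mean and SD). *HADHA* and the ratio separate the groups and *HADHB* does not.

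*ECHS1*, the short-chain enoyl-CoA hydratase that also serves valine breakdown (Entrez gene 1892, chromosome 10, 133362485 to 133373354, minus strand), had normalized values of 114, 106 and 131 with scrambled siRNA and 89.2, 85.5 and 88.4 with *DUSP6* siRNA. The groups did not overlap. The mean fell from 117 ± 12.4 to 87.7 ± 1.94 (SD, 3 libraries each). The log2 fold change was -0.41 (standard error 0.10, 95% interval -0.62 to -0.19, limma adjusted p = 0.00903), and the call held under all 14 alternatives. The ratio of *HADHA* to *ECHS1* per kb was 0.924 ± 0.00606 with scrambled siRNA and 0.579 ± 0.0127 with *DUSP6* siRNA (SD, n = 3; two-sided exact permutation test, p = 0.1, adjusted 0.133). The groups did not overlap in this ratio, which was the lower one with *DUSP6* siRNA. The ratio of *ECHS1* to *HADHB* was 1.77 ± 0.0574 and 1.40 ± 0.0869 (SD, n = 3), with the same exact permutation p of 0.1.

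**Figure D4:**
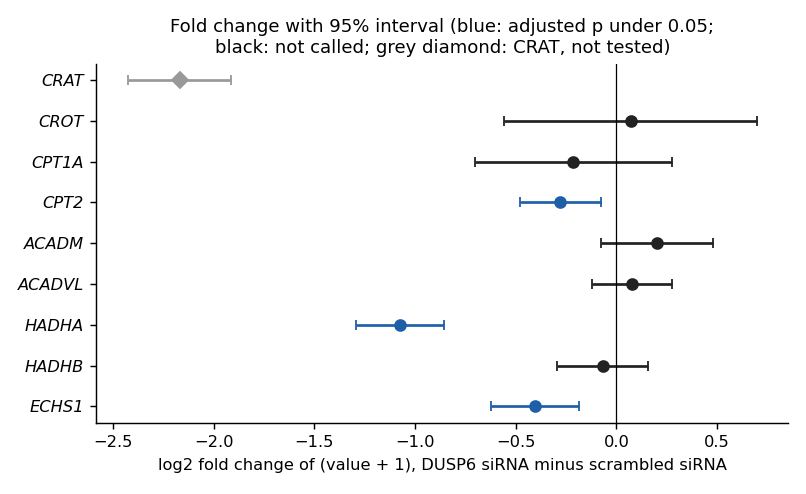
log2 fold change of (value + 1), *DUSP6* siRNA minus scrambled siRNA, with the 95% interval of the limma fit for the 9 enzymes (blue, adjusted p under 0.05; black, not called; grey diamond, *CRAT*, which was picked on this value and not tested). *HADHA* lies at -1.08 and the intervals of *CROT* and *CPT1A* are the widest of the 9.

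Levels were compared between genes only per kb of canonical transcript. With scrambled siRNA the order of mean values per kb was *CRAT* 184, *ECHS1* 91.6, *HADHA* 84.5, *ACADVL* 62.7, *HADHB* 51.9, *CPT2* 18.1, *CPT1A* 10.4, *CROT* 6.13 and *ACADM* 4.80. The ranges of *ECHS1* and *HADHA*, of *CPT1A* and *CROT*, and of *CROT* and *ACADM* overlapped across the libraries. With *DUSP6* siRNA the order was *ECHS1* 68.7, *ACADVL* 66.2, *HADHB* 49.3, *CRAT* 40.7, *HADHA* 39.8, *CPT2* 14.8, *CPT1A* 8.57, *CROT* 6.03 and *ACADM* 5.58. Here the neighbors *ECHS1* and *ACADVL*, *CRAT* and *HADHA*, and *CROT* and *ACADM* overlapped. On these lengths *CRAT* and *HADHA* thus moved below *ACADVL* and *HADHB*, whose own values were not called. Which transcript is used matters for the order, at the top and below it. Per kb of all annotated exons, with scrambled siRNA, *ECHS1* (91.6) lay above *CRAT* (67.2) and *CPT1A* (8.29) above *CPT2* (4.84). With *DUSP6* siRNA *HADHA* still lay above *HADHB* on that length, and the rest of that order was not taken.

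The 5 genes closest to *CRAT* over the 6 libraries, by Euclidean distance of log2(value + 1) centered on each gene's mean, were *MGLL*, *ANO1*, *CISH*, *PSTPIP2* and *AHNAK*, at distances of 0.101, 0.217, 0.227, 0.229 and 0.263. *MGLL*, a monoacylglycerol lipase, had normalized values of 14.8, 16.7 and 14.2 with scrambled siRNA and 3.09, 1.93 and 2.67 with *DUSP6* siRNA. As for *CRAT*, scrambled siRNA replicate 2 was the highest library and *DUSP6* siRNA replicate 2 the lowest. *AHNAK*, a large scaffold protein, went from a mean of 947 to 232, and *ANO1*, a calcium-activated chloride channel, from 142 to 33.6, with 10.3% of its exons shared with an antisense gene. *CISH*, a cytokine signaling inhibitor, went from 81.9 to 15.6 and *PSTPIP2* from 18.9 to 3.53. These genes were selected for likeness to *CRAT* over these same libraries, so their changes carry no test and a shared replicate order is part of the selection.

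The wider pathway was followed in 9 lists of 120 genes that hold none of the 9 enzymes. Of these, 118 were in the table and 98 were tested, and 33 of the 98 were called lower (33.7%, against 24.7% of all genes) and 21 higher (21.4%, against 19.7%). The median log2 fold change of the 98 was -0.06, against -0.01 over all genes tested. The count called lower fell to 21 without *DUSP6* siRNA replicate 3. In that fit the count called lower over all 12862 genes fell as well, from 3179 to 2306. Of the 54 calls, 37 kept their call and direction in each alternative that tested the gene.

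Of 7 tested genes that supply carnitine or move its esters, 4 were called higher (against 19.7% of all genes), 1 lower (against 24.7%) and 2 not called, at a median log2 fold change of 0.49. The carnitine transporter *SLC22A5* rose from 24.2 ± 4.28 to 38.1 ± 1.87 (SD, n = 3; log2 fold change 0.65, limma adjusted p = 0.00440), and *SLC22A4* rose from 4.35 to 7.08 (0.60, limma adjusted p = 0.00380), with 8.64% of its exons shared with a neighbor. *TMLHE*, which starts carnitine synthesis, rose from 83.2 to 118 (0.50, limma adjusted p = 0.00558), and the carnitine-acylcarnitine carrier *SLC25A20* from 10.4 to 15.1 (0.49, limma adjusted p = 0.0150), a call lost without *DUSP6* siRNA replicate 2. *BBOX1*, the last enzyme of carnitine synthesis, fell from 4.54 ± 1.48 to 1.46 ± 0.263 (SD, n = 3; log2 fold change -1.15, limma adjusted p = 0.00133). *TMLHE* and *SLC25A20* were named after their values were seen.

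Of 13 other mitochondrial beta-oxidation genes tested, 6 were called lower (against 24.7% of all genes), 2 higher (against 19.7%) and 5 not called. Their median was -0.20. *ACAD9*, a dehydrogenase that also serves complex I assembly, fell from 46.8 to 28.7 (log2 fold change -0.68, limma adjusted p = 0.00105), with 7.03% of its exons shared. The thiolase *ACAA2* rose from 1.62 to 3.63 (0.82, limma adjusted p = 9.71e-04), with 7.83% shared, and *ACAD11* from 0.914 to 1.86 (0.58, limma adjusted p = 0.00357). The exons of *ACAD11* are shared to 72.2% with a read-through gene, so its value is uncertain. In peroxisomes, 2 of 14 genes were called lower, 5 higher and 7 not called, with a median of 0.02. *ACOX2*, a branched-chain acyl-CoA oxidase, had 9.67, 1.36 and 4.86 with scrambled siRNA and 0.526, 0.220 and 0.324 with *DUSP6* siRNA (log2 fold change -1.97, limma adjusted p = 0.00636). Its scrambled siRNA libraries were spread widely and still lay above all *DUSP6* siRNA libraries. *PHYH*, which starts phytanic acid oxidation, rose from 0.777 to 2.35 (0.91, limma adjusted p = 3.57e-04). *ACAD11*, *ACOX2* and *PHYH* are the 3 of the 54 called list genes with 1 group mean under the filter of 1, so they were tested only because the other group was high. With no filter they were called too (limma adjusted p = 0.00560, 0.0244 and 0.00112).

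Upstream of the carnitine shuttle, 4 of 9 genes of fatty acid uptake and activation were called lower, 1 higher and 4 not called (median -0.10). The shares called over all genes were 24.7% lower and 19.7% higher. The acyl-CoA synthetase *ACSL1* fell from 353 ± 62.9 to 149 ± 16.1 (SD, n = 3; log2 fold change -1.23, limma adjusted p = 1.96e-04). *ACSL3* fell from 212 to 125 (-0.75, limma adjusted p = 8.83e-04), and *PNPLA2*, the lipase that opens triglyceride stores, from 130 to 75.4 (-0.78, limma adjusted p = 5.39e-04), with 10.5% of its exons shared. The list of malonyl-CoA control, the brake on CPT1, had 1 gene lower, 1 higher and 9 not called of 11 (median 0.04). *ACACA*, which makes malonyl-CoA, fell from 173 ± 14.9 to 95.2 ± 1.80 (SD, n = 3; log2 fold change -0.85, limma adjusted p = 1.51e-04). *MLYCD*, which removes it, rose from 3.08 to 5.60 (0.70, limma adjusted p = 0.00718), with 10.2% of its exons shared, and *ACACB*, the mitochondrial acetyl-CoA carboxylase, was not called.

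Transcriptional regulators of the pathway moved in both directions. Of 15 tested, 5 were called lower (against 24.7% of all genes), 3 higher (against 19.7%) and 7 not called (median -0.18). *PPARGC1A*, the coactivator of mitochondrial genes, had normalized values of 6.10, 6.07 and 3.19 with scrambled siRNA and 20.1, 31.3 and 20.9 with *DUSP6* siRNA (log2 fold change 2.05, limma adjusted p = 2.10e-04). *PPARD*, a fatty acid sensing nuclear receptor, had 260, 225 and 198 with scrambled siRNA and 71.2, 56.5 and 62.0 with *DUSP6* siRNA (-1.83, limma adjusted p = 1.47e-05). The groups of both genes were far apart and their changes opposite. The partner receptor *RXRB* rose from 42.7 to 72.4 (0.75, limma adjusted p = 5.87e-04), with 9.26% of its exons shared, and *PPARA* was not called. Of 9 PPAR target genes outside the pathway only 3 passed the filter, and *UCP2*, a mitochondrial carrier, fell from 73.4 to 23.0 (-1.63, limma adjusted p = 8.25e-06), *TXNIP* rose from 232 to 293 (0.33, limma adjusted p = 0.00865) and *UCP3* was not called (median -0.27).

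Of 13 genes of acetyl-CoA and acyl-CoA turnover, the pools that CRAT buffers, 7 were called lower, 3 higher and 3 not called (median -0.30). Among all genes tested the shares were 24.7% lower and 19.7% higher. Citrate synthase, *CS*, had normalized values of 368, 313 and 350 with scrambled siRNA and 178, 162 and 173 with *DUSP6* siRNA (log2 fold change -1.0, limma adjusted p = 7.73e-05). The thioesterase *ACOT1* rose from 11.5 to 24.7 (1.05, limma adjusted p = 5.00e-04), but *ACOT2* is a near-identical neighbor, and whether reads were split between the 2 was not tested, so its value is uncertain.

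**Figure D5:**
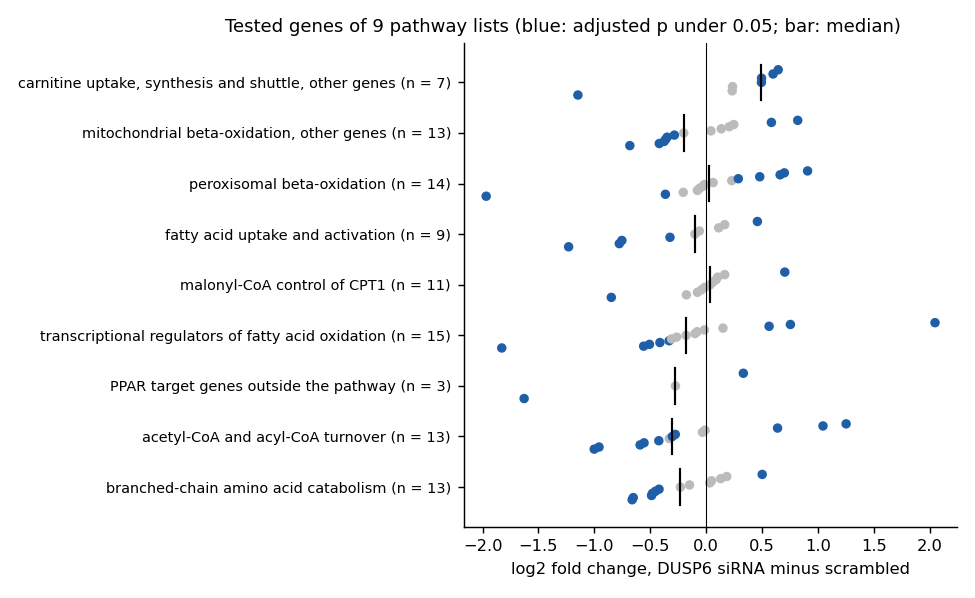
log2 fold change of each tested gene in the 9 pathway lists, *DUSP6* siRNA minus scrambled siRNA (1 point per gene; blue, limma adjusted p under 0.05; grey, not called; bar, median of the list; n, genes tested). Medians run from -0.30 for acetyl-CoA and acyl-CoA turnover to 0.49 for carnitine uptake, synthesis and shuttle, and called genes lie on both sides of 0 in all 9 lists.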

How the data were processed

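RNA from 6 MDA-MB-453 libraries was prepared with a stranded TruSeq mRNA kit and sequenced on a NovaSeq instrument. With Rsubread 2.0.0, the authors mapped the reads to hg38 and counted them over RefSeq genes, and they deposited 1 normalized signal value per gene and library; the labels also name bcl2fastq and edgeR. Counting used the package's default settings, which ignore strand. All values (100% within 0.01) were whole reads times 1 step per library (0.0121 to 0.0202), and the steps matched edgeR's TMM factors to 2.44e-15, so depth and composition were already scaled.

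Values were tested with limma 3.58.1 (lmFit, eBayes with a trend) in R 4.3.3 on log2(value + 1), leaving 12862 of 22807 genes after a filter on a mean of at least 1. Ratios were compared by exact permutation. Lengths and exon overlaps came from GENCODE 44. The alternatives left out each library, blocked on the replicate number, dropped the filter or raised it to 10, set the pseudocount to 0.1, dropped the eBayes trend, rescaled by quantiles or by the median of ratios, or ran the edgeR 4.0.16 quasi-likelihood test on recovered reads. On simulated data limma and edgeR each recovered 100% of 100 genes changed by 1 and 100 changed by 2 on the log2 scale among 12862, with 6 false calls each. The simulation gave all genes 1 fixed spread beyond read sampling, and libraries differed only in depth besides. These rates therefore do not carry over to genes as variable as *CROT* and *CPT1A*.

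The 9 enzymes and all lists were chosen with earlier results of these data known. Named genes were the 9 enzymes, *DUSP6*, up to 3 called genes per list with the largest fold change and no overlap between groups, and the 5 genes nearest to *CRAT*. Some genes that met this rule are not reported here. *IFIT1* was named after its values were seen. The authors' other cell lines and assays were not analysed here.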

Additional observations from a re-analysis of the deposited data

How the results depend on the processing

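Of 112 values of the 8 enzymes besides *CRAT* under alternatives, 102 kept their direction and side of the threshold, 5 lost a call, all of *CPT2*, 1 of *CPT1A* gained a call and 4 changed sign, 1 of which, of *CROT*, also passed the test. *CRAT* was at -2.0 under quantile normalization and from -2.26 to -2.07 with 1 library left out. *HADHB* was at 0.044 (log2 fold change) under quantile normalization. With 1 library left out, *HADHB* ranged from -0.11 to 0.019, *CROT* from -0.32 to 0.29 and *CPT1A* from -0.49 to 0.024. Genes called higher among all tested were 1639, against 2540, with a mean value of at least 10, where fewer genes were tested, and ranged from 1574, without *DUSP6* siRNA replicate 2, to 3183 with 1 library left out. Quantile normalization gave 2958 higher and 2887 lower, against 2540 and 3179. List genes called lower ranged from 21 to 35 of 98 tested with 1 library left out. Genes called lower among all tested ranged from 2306 to 3581 in the same fits. With the replicate number as a block (replicate block), 3096 genes were called lower and 2495 higher, and *CPT2* lost its call (limma adjusted p = 0.0713). Deviations of same-numbered libraries correlated at r = 0.005, 0.0868 and -0.0764 across genes, so the numbers do not pair the libraries. Of 745 values of the called list genes under alternatives, 57 lost the call and 0 changed sign. *ACAD8* lost its call without scrambled siRNA replicate 1 or 2 or *DUSP6* siRNA replicate 2 (limma adjusted p = 0.0650, 0.0593 and 0.0936). The cause of these changes was not tested. With 1 read worth at most 0.0202, depth did not limit the enzymes' values.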

Other observations

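Branched-chain amino acid catabolism delivers acyl-CoA esters to CRAT and shares *ECHS1* with fatty acid oxidation. Of its 13 tested genes, 6 were called lower (against 24.7% of all genes), 1 higher (against 19.7%) and 6 not called. The median log2 fold change was -0.23. *BCKDK*, the kinase that holds back the branched-chain ketoacid dehydrogenase, had normalized values of 49.3, 37.0 and 56.9 with scrambled siRNA and 31.9, 29.1 and 27.3 with *DUSP6* siRNA (log2 fold change -0.66, limma adjusted p = 0.00733). *HIBADH*, an enzyme of valine breakdown, fell from 29.9 ± 1.66 to 18.6 ± 0.479 (SD, n = 3; log2 fold change -0.65, limma adjusted p = 7.64e-04). *ACAD8*, also of valine breakdown, rose from 23.0 ± 4.72 to 32.7 ± 3.09 (SD, n = 3; log2 fold change 0.50, limma adjusted p = 0.0208), a call lost when any one of 3 libraries was left out. Enzymes of the same route thus moved in opposite directions, with *ECHS1* among those that fell.

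Within the scrambled siRNA group the 9 enzymes did not vary together. *CPT2*, *ACADVL*, *HADHA*, *HADHB* and *ECHS1* were all highest in replicate 3 and lowest in replicate 2, whereas *CROT*, *ACADM* and *CRAT* were lowest in replicate 3. Replicate 3 also stood further off over all genes tested. Its median absolute log2 difference was 0.204 to replicate 1 and 0.202 to replicate 2, against 0.167 between replicates 1 and 2. The share of all genes with these orders was not taken. On the log2(value + 1) scale, *CROT* in replicate 3 lay 0.78 below the group's mean, while *HADHA*, *HADHB* and *ECHS1* lay 0.16, 0.17 and 0.16 above it. The libraries of this group may hold different scrambled siRNAs, and the part of that in these differences was not tested.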
